A study of Mus musculus with 8 samples.

Results

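The 62 genes described here encode the heterogeneous nuclear ribonucleoproteins (hnRNPs) and the core proteins of the spliceosome. They are the rows of the deposited count table whose gene symbol begins with Hnrnp, Sf3a or Sf3b followed by a digit, Snrnp, U2af, Prpf, or Snrp followed by a letter from a to g, with names of pseudogenes (-ps) left out. They make up 62 of the 17613 genes in the table, and all 62 passed the filter on low counts, which left 15902 genes for testing. The study sequenced polyadenylated RNA of C57BL/6 mouse brain. Of its 8 libraries, 4 carry the label wild type (WT) and 4 the label Uhrf2 knockout (KO), and the design compares the expression of all genes between the genotypes. The labels give no age, no sex, no brain region, no allele of the knockout, and no statement that each library is a separate animal. UHRF2 is a nuclear protein that binds DNA carrying modified cytosine.

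The targeted gene went against its label. In the libraries labelled WT, replicates 1 to 4, Uhrf2 stood at 58.0, 47.7, 57.2 and 58.9 CPM (the counts scaled to the library's size), and in those labelled KO at 86.4, 88.6, 88.4 and 91.8 CPM. It was 1.6-fold higher in the libraries labelled KO, with an adjusted p = 5.45e-06 from edgeR. A two-sided exact permutation over all 70 divisions of the libraries gave p = 0.0286, the smallest possible here. Adjusted p-values throughout come from the quasi-likelihood test of edgeR, adjusted after Benjamini and Hochberg over all tested genes. The counts do not show which part of the gene the reads cover, so every direction below is that of the libraries as labelled. Library totals ran from 11891350 to 19773921 counts. All 6 neuronal marker genes were found, with a summed level of 5689 to 6163 CPM in the WT libraries and 5817 to 6376 CPM in the KO libraries, and no marker of neurons, glia, endothelium, blood, choroid plexus, liver or muscle passed the threshold. The lowest adjusted p was 0.0880 (edgeR), for an astrocyte marker. All 6 neuronal markers had positive log2 fold changes (median 0.03). Of 6 markers each, 5 were negative in endothelium (median -0.17), choroid plexus (-0.10) and oligodendrocytes (-0.05). In astrocytes (-0.07) and microglia (-0.05) 4 of 6 were negative, and in blood (0.09) 4 of 5 were positive. A difference in cell make-up was not tested.

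Pre-messenger RNA is bound as it is made by hnRNPs, abundant RNA-binding proteins that influence splicing, export and stability. Introns are removed by the spliceosome, which is built from small nuclear ribonucleoproteins (snRNPs). U1 recognises the 5′ splice site, U2 with its SF3A and SF3B subcomplexes binds the branch point, U2AF reads the 3′ splice site, and the U4/U6.U5 tri-snRNP then joins to form the catalytic core. A ring of Sm proteins is shared by most of these particles, and a separate set of snRNPs, U11 and U12, serves the rare minor-class introns. Neurons splice their transcripts in many alternative ways and use several members of these families as regulators.

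The promoters of 6 members are shown to place the genes that the measurements below turn on: the most abundant one, Hnrnpa2b1, its relative Hnrnpa1, the branch-point protein genes Sf3b1 and Sf3b2, and the members with the lowest p-values, Prpf38b and Prpf39. Each is the 250 bases before a start site in RefSeq (GRCm38.p6), written 5′ to 3′ on the strand of the gene. Capitals mark the letters GGGCGG or CCGCCC (the GC box), CCAAT or ATTGG (the CCAAT box) and CCGGAAG or CTTCCGG (the core bound by ETS factors).
Hnrnpa2b1, chr6:51469895-51470144, minus strand: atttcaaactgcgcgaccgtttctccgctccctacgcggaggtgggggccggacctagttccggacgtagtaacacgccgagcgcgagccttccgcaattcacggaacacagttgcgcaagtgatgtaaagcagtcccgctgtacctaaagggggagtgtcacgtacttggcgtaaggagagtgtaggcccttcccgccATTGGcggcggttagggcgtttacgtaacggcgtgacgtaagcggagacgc
Hnrnpa1, chr15:103240147-103240396, plus strand: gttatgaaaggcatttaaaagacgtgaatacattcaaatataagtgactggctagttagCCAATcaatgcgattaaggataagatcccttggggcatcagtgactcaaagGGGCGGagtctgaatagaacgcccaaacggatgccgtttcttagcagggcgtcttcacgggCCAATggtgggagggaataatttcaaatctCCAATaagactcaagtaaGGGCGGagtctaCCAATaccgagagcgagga
Sf3b1, chr1:55027479-55027728, minus strand: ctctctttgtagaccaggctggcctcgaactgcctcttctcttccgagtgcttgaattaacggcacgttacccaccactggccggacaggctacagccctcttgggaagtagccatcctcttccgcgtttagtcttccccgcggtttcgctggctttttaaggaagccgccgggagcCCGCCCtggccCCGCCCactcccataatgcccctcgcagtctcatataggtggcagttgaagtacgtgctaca
Sf3b2, chr19:5295456-5295705, minus strand: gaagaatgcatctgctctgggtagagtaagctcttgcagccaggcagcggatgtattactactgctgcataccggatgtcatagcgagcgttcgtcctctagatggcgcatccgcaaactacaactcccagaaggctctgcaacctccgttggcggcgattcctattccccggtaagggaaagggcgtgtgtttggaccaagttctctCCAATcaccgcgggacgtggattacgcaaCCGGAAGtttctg
Prpf38b, chr3:108911730-108911979, minus strand: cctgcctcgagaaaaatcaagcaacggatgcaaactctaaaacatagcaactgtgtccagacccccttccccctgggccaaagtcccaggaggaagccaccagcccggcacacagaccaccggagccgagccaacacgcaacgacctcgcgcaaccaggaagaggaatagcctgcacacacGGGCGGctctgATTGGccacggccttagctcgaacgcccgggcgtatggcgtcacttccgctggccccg
Prpf39, chr12:65036084-65036333, plus strand: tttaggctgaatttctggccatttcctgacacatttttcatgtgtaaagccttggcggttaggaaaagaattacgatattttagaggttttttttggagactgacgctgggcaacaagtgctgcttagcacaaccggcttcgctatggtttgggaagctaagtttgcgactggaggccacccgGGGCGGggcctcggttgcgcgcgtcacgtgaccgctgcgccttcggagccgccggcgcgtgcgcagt
Hnrnpa1 held 4 CCAAT boxes and 2 GC boxes, Hnrnpa2b1 held a single CCAAT box, and the ETS letters of Sf3b2 lay close to the start.

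RefSeq promoters were found for 52 of the 62 members, and 9 short motifs were searched on both strands in the 250 bases before every start of a gene, overlapping matches included. The ETS letters CCGGAAG were present in 15 of the 52 members (28.8%), against 13.9% of the 11184 tested genes with a promoter and 7.83% of all 27025 genes in the table of promoters. The GC box was present in 65.4% of the members and 62.2% of the tested genes. The CCAAT box was present in 26 of the 52 members and in 40.1% of the tested genes, and the letters TATAAA in 4 members (7.69%) and in 8.10%. The letters GCGCATGCG (NRF1) were in 3 members, TGACGTCA (the cyclic AMP response element) in 2, GCGTGGGCG (EGR) in 1, and AAGATGGCG (YY1) and CCATATTAG (serum response element) in 0. In the same order, 3.12%, 2.97%, 1.20%, 1.29% and 0.0805% of the tested genes held them. The median GC content of the promoters was 58.4% for the members and 59.6% for the tested genes. A match is a description of the letters and not a measured site.

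A protein-coding neighbour pointing the opposite way began within 1000 bases of the start of 16 of the 62 members (25.8%), against 10.8% of the tested protein-coding genes, where the 2 genes could overlap by up to 200 bases. Hnrnpa2b1 lay 466 bases from Cbx3, and Hnrnpa1 lay 616 bases from Cbx5, both of which encode heterochromatin protein 1. Of the 16 neighbours 13 were tested, and none passed the threshold; the lowest adjusted p was 0.589 (edgeR). Cbx3 had a log2 fold change of 0.05 (SE 0.08) and Cbx5 one of -0.03 (SE 0.04).

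The levels of the hnRNP and spliceosome genes in these brains spanned a wide range. Levels of different genes were set against each other only per length, as CPM per kilobase of the gene's protein-coding transcript of lower-median length. In the WT libraries Hnrnpa2b1 was the most abundant member at 323 ± 4.95 CPM per kilobase (SD, n = 4), and Prpf4, a protein of the U4/U6 snRNP, the least abundant at 5.28 ± 0.335, 61.2-fold lower. With the longest coding transcript of each gene the lowest member was instead an hnRNP gene, at 5.04 CPM per kilobase, and the range was 61.1-fold. Per length, Hnrnpa2b1 was followed by Hnrnph1 at 148 ± 4.75, Snrnp70 at 144 ± 10.1, Hnrnpk at 139 ± 3.89 and Hnrnpa3 at 123 ± 4.34. Hnrnph1, Snrnp70 and Hnrnpk differed by less than the spread of Snrnp70 between libraries, while Hnrnpa2b1 stood clear of all other members. The classes differed as well, with a median of 62.1 CPM per kilobase over the 20 hnRNP genes and 14.3 over the 3 proteins of U11/U12.

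**Figure D1:**
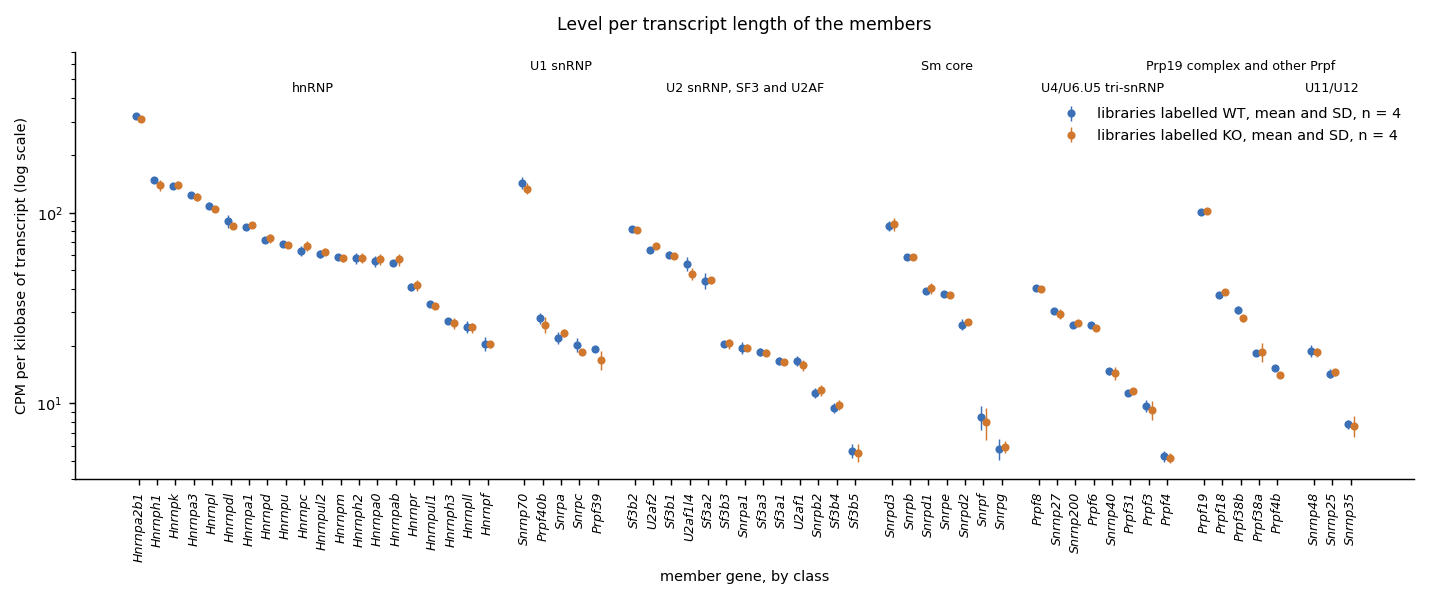
Level of 61 of the 62 members in CPM per kilobase of transcript (vertical axis, log scale), ordered by class and then by level, with the mean and SD of the 4 libraries labelled WT in blue and of the 4 labelled KO in orange. Hnrnpa2b1 is highest at 323 CPM per kilobase in the WT libraries, and the points of both groups lie next to each other for every member shown.

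The 7 member genes of the Sm ring, whose proteins assemble in 1 copy each, did not have equal transcript levels. Per length in the WT libraries, Snrpd3 was highest at 85.3 ± 4.97 CPM per kilobase, then Snrpb at 58.4 ± 2.17, Snrpd1 at 39.0 ± 0.932, Snrpe at 37.6 ± 0.762 and Snrpd2 at 25.9 ± 1.75. Snrpf at 8.48 ± 1.23 and Snrpg at 5.78 ± 0.703 were lowest, a range of 14.8-fold over the 7 genes. The transcript used for Snrpd3 is only 442 bases long, and with the longest coding transcript of each gene the range was 10.1-fold and Snrpb was highest. Snrpn, the neuronal relative of Snrpb, is not a member and is left out of both rankings. It stood at 673.7 to 692.9 CPM in the WT libraries, and no level per length is given for it. Snrpd1 and Snrpe differed by less than the sum of their SDs. Of the windows of 50 bases in the transcripts of Snrpf and Snrpg, 21.3% and 18.1% occur word for word in other genes; the part this plays in their low counts was not tested.

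Some members share much of their transcript with other annotated genes, which bears on how their reads could be assigned. In 35 of the 62 members at least 1 window of 50 bases of the transcript was also found in another annotated gene. For several of these the share was very small. More than 10% of the windows were shared in 17 members, and more than 50% in 5. With windows of 100 bases, 21 members shared at least 1 and 41 shared 0. For Hnrnpa3 the share was 91.0%, with 43 other genes of which 40 are pseudogenes, none of them listed in the count table. For U2af1l4 it was 86.4%, all with the overlapping readthrough gene Gm49396. U2af1 shared 62.8%, Hnrnpa1 54.1% and Hnrnpf 51.8%. The sources used here do not give the read length or how reads with several matches were treated, which leaves the levels of these 5 genes uncertain. Hnrnpa1 and Hnrnpa3, Hnrnph1 and Hnrnph2, and Snrpb and Snrpn shared 0 windows of 50 bases between the partners of each pair. The stretch below shows why copies of Hnrnpa3 are hard to tell from it. It gives coding bases 301 to 420 of Hnrnpa3 (gene at chr2:75659261-75669407, plus strand), a stretch placed arbitrarily, and the matching bases of the 3 pseudogenes that share the most windows, with capitals for bases that differ.
Hnrnpa3: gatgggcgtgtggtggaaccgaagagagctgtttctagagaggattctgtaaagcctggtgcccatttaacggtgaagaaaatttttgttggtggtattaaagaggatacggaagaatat
Gm5641, chr3:54481438-54482925: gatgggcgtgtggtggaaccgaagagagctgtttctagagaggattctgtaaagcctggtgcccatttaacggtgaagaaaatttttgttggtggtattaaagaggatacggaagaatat
Gm11847, chr4:12232833-12233951: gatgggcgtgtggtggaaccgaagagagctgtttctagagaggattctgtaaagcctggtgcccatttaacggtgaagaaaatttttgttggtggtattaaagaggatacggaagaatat
Gm5940, chrX:80456742-80457809: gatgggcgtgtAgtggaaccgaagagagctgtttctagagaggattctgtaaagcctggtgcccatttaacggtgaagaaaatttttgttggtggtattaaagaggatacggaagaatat
Gm5641 and Gm11847 differed from Hnrnpa3 at 0 of the 120 bases, and Gm5940 at 1.

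Between the groups, the members' levels stayed close. Among all 15902 genes 228 passed the threshold of 0.05 (1.43%), 182 of them higher under the label KO and 46 lower, and 0 of the 62 members did (edgeR). DESeq2 and limma-voom with quality weights also called 0 members. At an unadjusted p below 0.05, 4 members were lower and 0 higher, against 6.16% of all tested genes lower and 6.45% higher. The 4 were Prpf39, Prpf38b, Prpf4b and U2af1l4, which make up 6.45% of the members. The median log2 fold change of the members was -0.01, and that of all tested genes -0.0049; 36 of the 62 members (58.1%) and 52.0% of all tested genes had a negative value. The count over all genes depended on single libraries: it was 130 without KO replicate 3, 146 without KO replicate 4 and 110 without WT replicate 3, and in each of these fits 0 members were called. The labels do not say that the libraries are separate animals, so p-values measure the spread between these libraries, and in brain tissue fewer cells of a type and less RNA per cell cannot be told apart.

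The intervals were narrow enough to bound the differences. The 95% confidence interval of the fold change lay within 1.25-fold in either direction for 60 of the 62 members, against 64.9% of all tested genes, many of which had far fewer counts. Of the 11969 other tested genes with a WT level above that of the lowest member, 10113 had an interval within the same bound. The exceptions among the members were Snrpf, at only 7.30 CPM, whose interval reached 1.31-fold lower, and Prpf39. The point estimates were within 1.1-fold for 59 members. In the KO against WT comparison on simulated counts of 15902 genes, 76% of 50 genes changed by 1.25-fold were called and 10% of 50 genes changed by 1.1-fold. The changed genes were drawn at random from all genes above a minimum level, not from the members. Each simulated gene was given the spread typical of its level, so these shares are not the power for the members themselves.

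**Figure D2:**
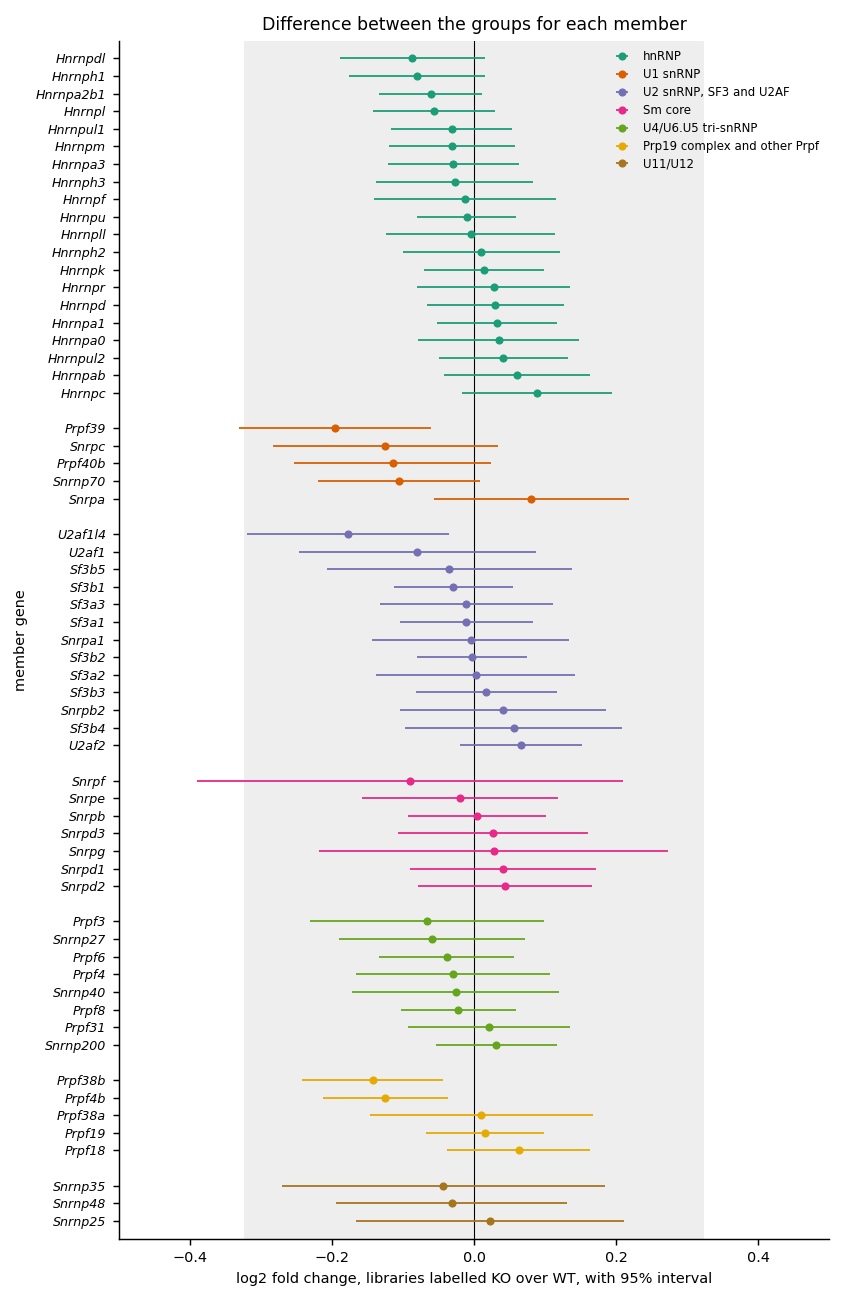
Log2 fold change of 61 of the 62 members, libraries labelled KO over those labelled WT (horizontal axis), with its 95% confidence interval and coloured by class; the grey band marks 1.25-fold in either direction. The intervals of Snrpf and Prpf39 reach beyond the band on the left, and those of Prpf39, Prpf38b, Prpf4b and U2af1l4 do not include 0.

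The 20 hnRNP genes varied little between libraries. Their median coefficient of variation was 3.37% over the WT libraries and 4.80% over the KO libraries, against 6.88% and 6.99% for all tested genes, which have lower counts. Log2 fold changes ran from -0.09 to 0.09, 11 negative and 9 positive. Hnrnpa2b1, which binds RNA in the nucleus and is known for sorting messages into dendrites, stood at 540, 520, 533 and 533 CPM in WT replicates 1 to 4 and at 498, 509, 528 and 504 CPM in KO replicates 1 to 4. The KO values were mostly below the WT values, with KO replicate 3 above WT replicate 2. The log2 fold change was -0.06 (95% interval -0.13 to 0.01, adjusted p = 0.496, edgeR).

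Hnrnpdl and Hnrnph1 had the lowest p-values among the hnRNPs. Hnrnpdl, a regulator of splicing and of mRNA stability related to Hnrnpd, stood at 263, 261, 245 and 224 CPM in the WT libraries and 244, 234, 225 and 232 CPM in the KO libraries. The groups overlapped, and its log2 fold change was -0.09 (SE 0.05, adjusted p = 0.484, edgeR). Hnrnph1, which binds runs of G near splice sites, stood at 330, 313, 337 and 334 CPM in the WT libraries and 286, 315, 335 and 306 CPM in the KO libraries. KO replicate 1 was the lowest of the 8, and the difference on the log2 scale was -0.08 (SE 0.05, adjusted p = 0.494, edgeR). Hnrnpc, which binds runs of U, pointed the other way, with 171, 148, 158 and 156 CPM in the WT libraries and 179, 158, 173 and 162 CPM in the KO libraries. The ranges overlapped here too, and its log2 fold change of 0.09 (SE 0.05, adjusted p = 0.496, edgeR) was the largest positive value of any member.

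The related pairs of hnRNPs gave small differences of either sign. Per length, Hnrnpa3 was 1.46-fold above Hnrnpa1 in the WT libraries and 1.40-fold above it in the KO libraries, and Hnrnph1 was 2.56-fold above Hnrnph2 in the WT libraries and 2.40-fold in the KO libraries. The log2 fold changes were 0.03 for Hnrnpa1 (95% interval -0.05 to 0.12) and -0.03 for Hnrnpa3 (-0.12 to 0.06). Hnrnph2, which is X-linked, was at 136 ± 8.69 CPM in the WT and 137 ± 8.49 CPM in the KO libraries (SD, n = 4), with a log2 fold change of 0.01 (-0.10 to 0.12). Differences between the partners of a pair were not tested, and the levels of Hnrnpa1 and Hnrnpa3 carry the uncertainty of their copies. In Hnrnph2, 30.9% of the windows of 50 bases also occur in a pseudogene, against 0.368% in Hnrnph1. The part this plays in the ratio of Hnrnph1 to Hnrnph2 was not tested.

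Of the 6 proteins of the U1 snRNP, 5 had negative values and 1 a positive one, with a median log2 fold change of -0.11. Prpf39, a partner of U1, stood at 76.4, 79.5, 78.1 and 80.03 CPM in WT replicates 1 to 4 and at 57.9, 76.5, 68.9 and 70.5 CPM in KO replicates 1 to 4. KO replicate 1 was far below the others, and KO replicate 2 lay just above WT replicate 1, so that the groups overlapped. The difference on the log2 scale was -0.20 (SE 0.06, 95% interval -0.33 to -0.06, adjusted p = 0.181, edgeR), the lowest p-value of any member. Leaving out 1 library at a time, Prpf39 was also the only member called: without KO replicate 2 its log2 fold change was -0.25 (adjusted p = 0.0360, edgeR) and without KO replicate 1 it was -0.13 (adjusted p = 0.352, edgeR). With trends of GC content and length removed, the adjusted p was 0.603. Its gene overlaps Fkbp3 on the opposite strand over 963 bases, and the sources used here do not give the strand setting of the counting. Prpf39 is not alone in this, since 20 of the 62 members overlap another gene of the count table on either strand.

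The other U1 proteins had smaller differences. Snrnp70, the U1-70K protein that holds the U1 RNA, stood at 226, 256, 268 and 248 CPM in the WT libraries and 212, 243, 227 and 245 CPM in the KO libraries. The lowest library of each group was replicate 1, and the difference on the log2 scale was -0.11 (SE 0.05, adjusted p = 0.444, edgeR). Prpf40b, a homologue of the yeast U1 protein Prp40, was at 87.4 ± 5.98 CPM in the WT and 80.9 ± 7.84 CPM in the KO libraries (SD, n = 4), with a log2 fold change of -0.11. Snrpa, which encodes the A protein of U1, was the positive one, at 29.5 ± 2.22 and 31.2 ± 1.61 CPM with a log2 fold change of 0.08. Snrpc, which encodes the C protein of U1, had 17.9 ± 1.5 and 16.4 ± 0.456 CPM and a log2 fold change of -0.12. The summed level of the class was 534 ± 19.9 CPM in the WT and 496 ± 28.1 CPM in the KO libraries (SD, n = 4), and the highest KO library, at 520 CPM, lay above the lowest WT library, at 513 CPM.

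The 13 proteins of U2, SF3A, SF3B and U2AF had a median log2 fold change of -0.0049, with 8 negative and 5 positive values. Sf3b1, the large SF3B subunit that grips the branch point, stood at 395, 364, 363 and 373 CPM in the WT libraries and 385, 356, 363 and 361 CPM in the KO libraries. The groups overlapped, with KO replicates 2 and 4 below every WT library, and the log2 fold change was -0.03 (95% interval -0.11 to 0.05, adjusted p = 0.832, edgeR). Sf3b2, the most abundant of the class per length at 81.7 ± 2.13 CPM per kilobase in the WT libraries, was at 263 ± 6.86 CPM and 263 ± 3.66 CPM in the 2 groups (SD, n = 4), with an interval of -0.08 to 0.07.

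The U2AF proteins, which read the 3′ splice site, had the lowest p-values of that class. U2af1l4, a relative of the small subunit, stood at 37.3, 40.0, 45.0 and 39.0 CPM in the WT libraries and 32.0, 37.6, 37.3 and 35.9 CPM in the KO libraries. The WT libraries ran higher, with KO replicate 2 and, narrowly, KO replicate 3 above WT replicate 1. The difference on the log2 scale was -0.18 (SE 0.07, adjusted p = 0.260, edgeR), and its reads can also come from Gm49396 and, without strand, from Psenen, which overlaps it over 327 bases. The large subunit U2af2 was at 134 ± 4.58 CPM in the WT and 140 ± 2.66 CPM in the KO libraries (SD, n = 4), with a log2 fold change of 0.07 (95% interval -0.02 to 0.15). The small subunit U2af1 had 15.4 ± 0.956 and 14.6 ± 0.987 CPM, with a log2 fold change of -0.08 (-0.25 to 0.09).

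In the Sm ring and the tri-snRNP the lowest adjusted p was 0.766, that of Snrnp27 (edgeR). Of the 7 Sm genes, 5 had positive values, the largest being those of Snrpd2 (0.04) and Snrpd1 (0.04), and Snrpd3 had 0.03. Snrpf stood at 7.65, 8.33, 7.39 and 5.83 CPM in the WT libraries and 7.68, 7.26, 7.56 and 4.87 CPM in the KO libraries, with replicate 4 the lowest in each group, and its log2 fold change of -0.09 became 0.04 without KO replicate 4. Snrpb was at 67.9 ± 2.51 and 68.1 ± 1.92 CPM (SD, n = 4), a log2 fold change of 0.0039. Snrpn, the neuronal relative of Snrpb that is expressed from the paternal chromosome, was at 679 ± 9.21 and 683 ± 10.3 CPM (SD, n = 4), with a log2 fold change of 0.01. Its identifier has another name in GENCODE M21, so no level per length is given for it.

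The tri-snRNP holds the proteins closest to the catalytic centre. Prpf8, the scaffold of that centre, stood at 300, 290, 291 and 288 CPM in the WT libraries and 296, 274, 285 and 297 CPM in the KO libraries. The groups overlapped, with KO replicates 2 and 3 below every WT library, and the log2 fold change was -0.02 (95% interval -0.10 to 0.06). Prpf8 was also the most abundant of the 8 per length, at 40.3 ± 0.729 CPM per kilobase in the WT libraries (SD, n = 4). The others named by lowest p were Snrnp27 at -0.06, Prpf6 at -0.04 and Prpf3 at -0.07, each with an interval that included 0, and 6 of the 8 values were negative.

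Prpf38b and Prpf4b were the members whose groups did not overlap. Prpf38b, a spliceosomal protein of the Prp38 family, stood at 99.7, 91.2, 93.7 and 89.2 CPM in WT replicates 1 to 4 and 85.0, 88.9, 83.3 and 81.1 CPM in KO replicates 1 to 4. Every KO library was below every WT library, by a gap of under 1 CPM between KO replicate 2 and WT replicate 4. The difference on the log2 scale was -0.14 (SE 0.05, 95% interval -0.24 to -0.04, adjusted p = 0.181, edgeR). Prpf4b, a kinase that acts on spliceosomal proteins, stood at 122, 115, 119 and 124 CPM in the WT libraries and 108, 110, 113 and 109 CPM in the KO libraries. All KO libraries were again the lower ones, and the difference on the log2 scale was -0.12 (SE 0.04, 95% interval -0.21 to -0.04, adjusted p = 0.186, edgeR). Without overlap and lower, these are 2 of the 62 members (3.23%), against 3.40% of all tested genes, and 0 members were higher without overlap, against 4.28% of all tested genes. Over the 17 alternatives the adjusted p ran from 0.0811 to 0.446 for Prpf38b and from 0.104 to 0.446 for Prpf4b, with a negative log2 fold change in each.

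Of the remaining genes of that class, Prpf19, the ubiquitin ligase of the Prp19 complex, was the most abundant per length at 101 ± 3.09 CPM per kilobase in the WT libraries (SD, n = 4) and had a log2 fold change of 0.02 (95% interval -0.07 to 0.10). Prpf18, a second-step splicing factor, had 58.2 ± 2.14 and 60.8 ± 1.85 CPM with a log2 fold change of 0.06. The 3 members of U11/U12 had the lowest median level per length of the classes, 14.3 CPM per kilobase in the WT libraries. Their summed levels, over the fewest genes of any class, were 34.1 ± 0.750 and 33.7 ± 1.42 CPM (SD, n = 4). Other proteins of the minor spliceosome, such as that of Rnpc3, have gene symbols outside the rule for members. Snrnp25 had a log2 fold change of 0.02, Snrnp48 one of -0.03 and Snrnp35 one of -0.04, which became 0.06 without KO replicate 3.

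**Figure D3:**
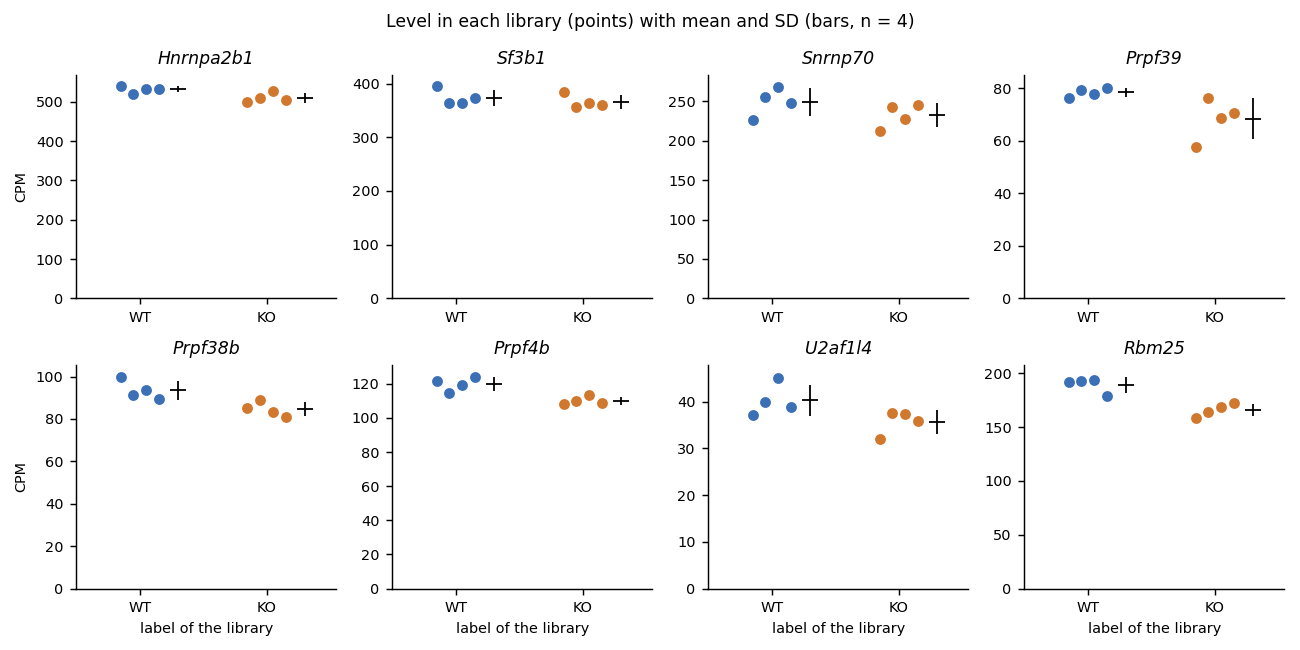
CPM (vertical axis, from 0) in each of the 4 libraries labelled WT (blue) and the 4 labelled KO (orange), replicates 1 to 4 from left to right, with the mean and SD in black, for 7 members and for Rbm25. The groups do not overlap for Prpf38b, Prpf4b and Rbm25. KO replicate 1 lies below all other libraries for Hnrnpa2b1, Snrnp70, Prpf39, U2af1l4, Rbm25 and, narrowly, Prpf4b, but not for Sf3b1 and Prpf38b.

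Single libraries differed from the rest for a few members only. Of 496 values (62 members in 8 libraries), 10 were more than 0.2 below the member's mean log2 CPM over all libraries and 2 more than 0.2 above it. KO replicate 1 gave 4 of the low values, in Prpf39, Prpf40b, U2af1l4 and Prpf3, and KO replicate 4 gave 3, in Snrpf, Prpf38a and Sf3b5. KO replicate 1 also had the largest median absolute deviation of the members from their group mean, 0.07, against 0.04 to 0.05 in the other libraries. Over all tested genes that value was 0.08 in KO replicate 1 and ran from 0.05 to 0.08 in the others.

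**Figure D4:**
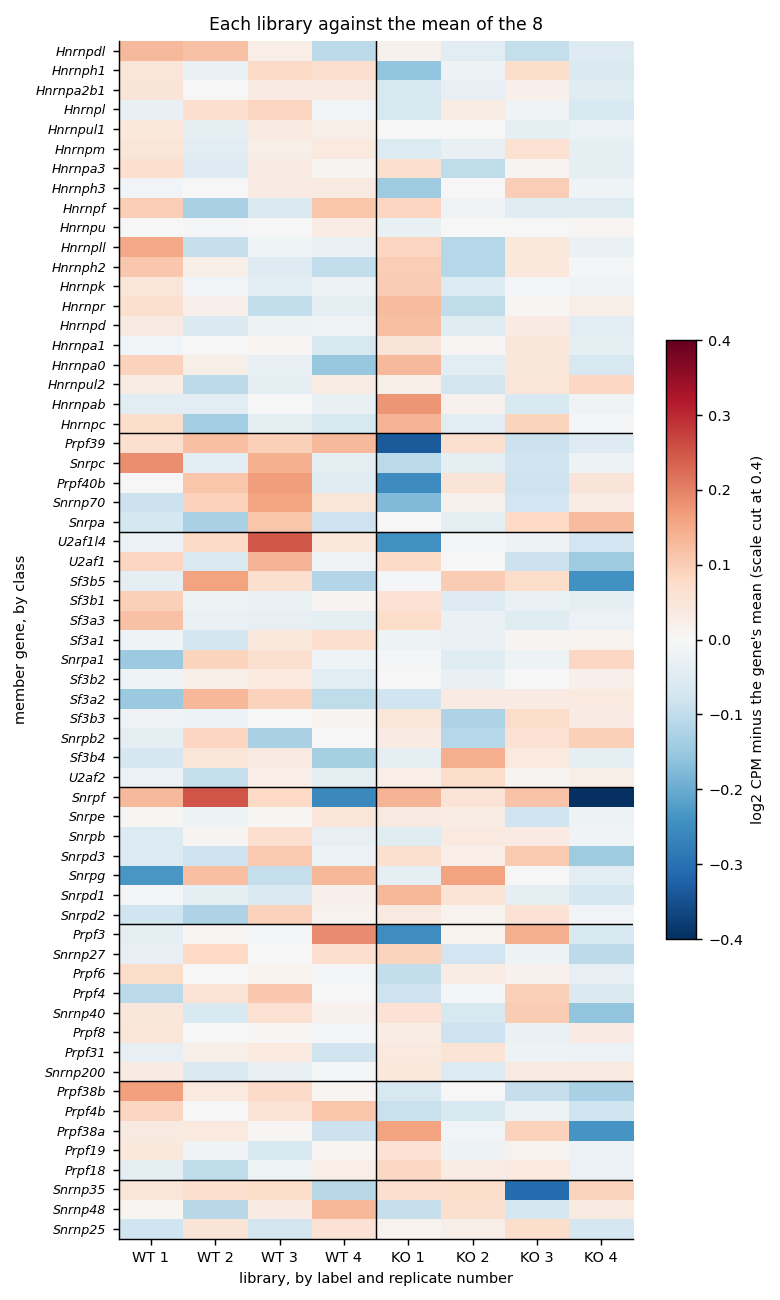
Log2 CPM of 61 of the 62 members (rows, by class) in each library (columns) minus the member's mean over the 8 libraries, in red where higher and blue where lower; the colour scale ends at 0.4, and Snrpf in KO replicate 4 lies beyond it at -0.51. KO replicate 1 holds 4 of the 10 values below -0.2, among them Prpf39 at -0.34.

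The summed level of the 62 members was 7237 ± 93.3 CPM in the WT and 7137 ± 81.9 CPM in the KO libraries (SD, n = 4), which is 0.724% and 0.714% of the scaled library size. The hnRNP genes supplied 4112 ± 74.0 and 4072 ± 74.6 CPM of it. These sums overlapped between the groups, with KO replicate 3 at 7211 CPM above WT replicate 2 at 7144 CPM.

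The other genes of the splicing pathway were read from lists chosen by role. Of 77 other core spliceosome genes found among the tested genes, 1 was called lower and 0 higher, against 228 of all 15902 tested genes called (1.43%). Negative values were found for 50 of the 77 (64.9%, against 52.0% of all tested genes), and the median log2 fold change was -0.02. The called gene was Rbm25, which works with U1 in choosing 5′ splice sites. It stood at 192, 193, 193 and 179 CPM in WT replicates 1 to 4 and 158, 164, 169 and 172 CPM in KO replicates 1 to 4, so the groups did not overlap. Of all tested genes, 3.40% were likewise lower without overlap. The difference on the log2 scale was -0.19 (SE 0.04, adjusted p = 0.0281, edgeR). The call was lost without KO replicate 1 (adjusted p = 0.0818), KO replicate 3 (0.0908), WT replicate 1 (0.0645), WT replicate 2 (0.0848) or WT replicate 3 (0.123, all by edgeR), and with trends of GC content and length removed (0.0675). Over the 17 alternatives its log2 fold change ran from -0.22 to -0.16. The next lowest p was that of Luc7l3, another partner of U1, at 315 ± 12.3 and 282 ± 7.76 CPM (SD, n = 4), with a log2 fold change of -0.16 and an adjusted p = 0.0519 (edgeR).

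The 3 smaller lists had 0 calls in either direction, against 1.43% of all tested genes. Among the 24 hnRNPs under other names 16 values were negative. Ewsr1, which encodes an RNA-binding protein, was at 249.05 ± 8.81 and 231 ± 4.20 CPM (SD, n = 4), with a log2 fold change of -0.11 and an adjusted p = 0.230 (edgeR). Of 9 genes of the minor spliceosome, Rnpc3, which encodes the U11/U12 65K protein, was at 55.0 ± 0.270 and 48.8 ± 2.45 CPM (SD, n = 4), with a log2 fold change of -0.17 and an adjusted p = 0.113 (edgeR). Zrsr2, which reads the 3′ splice site of minor introns, had a log2 fold change of 0.10. Of 26 genes of snRNP assembly and transport 15 were positive, and those with the lowest p were Usb1, which trims U6 RNA, at -0.24 and Sart3, which recycles U4/U6, at 0.10. The median log2 fold changes were -0.02, -0.0055 and 0.01 for these 3 lists.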

How the data were processed

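The members and gene lists were chosen with earlier results of these data known; the motifs, the windows of 50 and 100 bases, the distance of 1000 bases and the bound of 1.25-fold were set later still. The authors deposited an estimated count per gene and library (expected counts), not scaled, of which 91.5% are whole within 0.001. Per the submitters' processing notes the build was GRCm38 (mm10) and the tools TopHat2 2.0.9 and edgeR were used, in roles not stated. The sources used here do not name the counting program. Counts were rounded, filtered with filterByExpr and scaled by TMM, and the groups were compared with edgeR 4.0.16 (robust quasi-likelihood, group as the only term) with Benjamini-Hochberg adjustment over 15902 genes. Standard errors and 95% intervals were derived from the p-value and its degrees of freedom. Replicate libraries differed by more than counting noise (chi-square per degree of freedom 2.44 to 5.02), and the common coefficient of variation was 5.38%. Named genes are Hnrnpa2b1, Sf3b1 and Uhrf2, called genes, per class the 3 lowest p and the highest level per length, the 3 extremes each way, 3 pairs of relatives, and per list the 2 lowest p; single-library and neighbour results (such as Prpf38a, Sf3b5, Cbx3) were named after their values were seen. Some genes that this rule takes are not reported by name here or in the figures. Positions, lengths and shared windows come from GENCODE M21 (GRCm38). The test was checked on simulated counts. Alternatives were other scalings, filters, DESeq2 1.42.0, limma-voom (limma 3.58.1), a replicate block, trends of GC content and length removed, and libraries left out.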

Additional observations from a re-analysis of the deposited data

Results flagged for a closer look

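In 84 groups of 4 libraries (42 genes in 2 groups, counting Uhrf2), 6 held a library whose gap to its nearest neighbour took up more of the group's range than Dixon's 95% critical value, where chance alone gives about 4.2. Rbm25 was at 178.6 CPM in WT replicate 4 and between 191.7 and 193.3 CPM in the other WT libraries. Snrnp35 was at 7.90 CPM in WT replicate 4 and at 6.87 CPM in KO replicate 3, where the other KO libraries lay between 8.95 and 9.08 CPM. Snrpf was at 4.87 CPM in KO replicate 4, against 7.26 to 7.68 CPM in the others. Snrpn was at 692.9 CPM in WT replicate 2, against 673.7 to 674.9 CPM. Uhrf2 was at 47.7 CPM in WT replicate 2, against 57.2 to 58.9 CPM.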

How the results depend on the processing

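Over 17 alternatives, 29 of the 42 named genes kept their sign and Uhrf2 kept its call with a log2 fold change of 0.61 to 0.72. The other 13 genes, none called and none beyond 0.09 in size, changed sign under at least 1. With trends of GC content and length removed, the log2 fold changes were 0.0171 for Hnrnpa3, 0.00623 for Sf3b1, 0.012 for Snrnp48 and -0.0199 for Snrpb. Snrpb was at -0.000365 with limma-voom and -0.000336 with upper-quartile factors, and Prpf6 at 0.00435 without both libraries numbered 1. With 1 library left out, the ranges were -0.0205 to 0.0514 (Hnrnph2), -0.00136 to 0.0352 (Prpf19), -0.0366 to 0.00122 (Prpf8), -0.0531 to 0.00156 (Sf3b1), -0.0176 to 0.0135 (Sf3b2), -0.0859 to 0.0573 (Snrnp35), -0.0731 to 0.00829 (Snrnp48), -0.00837 to 0.0313 (Snrpb), -0.00333 to 0.0759 (Snrpd3), -0.183 to 0.0385 (Snrpf) and -0.000535 to 0.0183 (Snrpn).

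Members called lower numbered 0 to 1 with 1 library left out, and members called higher 0. Over all genes, the ranges were 96 to 247 higher and 14 to 77 lower, and 18 lower without both libraries numbered 1; limma-voom called 92 lower. Other spliceosome and snRNP genes called lower numbered 0 to 2 with 1 library left out, 0 without both libraries numbered 1, 3 with DESeq2 (Luc7l3, Rbm25, Srrm1), 3 with limma-voom (Luc7l3, Rbm25, Srrm2) and 2 with trends removed (Srrm1, Srrm2); Srrm1 and Srrm2 were named after their values were seen. The cause of these changes was not tested, beyond the smaller number of libraries.

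The replicate numbers do not pair the libraries by any label, and the correlations of same-numbered libraries were 0.21, 0.08, 0.02 and 0.07. Those of differently numbered libraries ran from -0.15 to 0.11. Whether the numbers mark a real pairing was not tested. With a replicate block 347 genes were called higher and 148 lower, 1 member was lower (Prpf39, adjusted p = 0.0363, edgeR) and 6 other spliceosome genes were. Depth limits Snrpf and Snrpg most, with as few as 73 and 62 counts in a library.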
